A study of Mus musculus with 2 samples.

Results

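Inhibitory receptors of T cells were followed over 6 cultures of mouse splenic CD8+ T cells through 7 genes, Pdcd1, Lag3, Ctla4, Cd200, Havcr2, Tigit and Btla, out of 32285 genes in the count matrix. The genes were taken by symbol, and each symbol matched 1 row. Cells came from wild-type (WT) mice and spent 30 h either on plates coated with peptide-MHC (pMHC, a peptide held by the MHC molecule that presents it to a T cell receptor) or at rest. Peptide M9C was given at 0.2, 2 and 20 pmol and peptide L6F at 20 and 80 pmol, each on H-2Db, and rested cells were the control. Live cells were sorted with propidium iodide, which does not select for CD8. The 2 peptides have 9 residues and differ at residues 6 and 9. Every condition was 1 culture, stained with its own hashtag antibody and pooled into 1 lane of a 10x Genomics droplet run, so there is no replicate, no p-value and no standard error, and the labels do not say which T cell receptor the cells carry.

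Inhibitory receptors are surface proteins that restrain a T cell after it has met antigen. PD-1 (Pdcd1) recruits phosphatases that dampen signals of the T cell receptor and of CD28, CTLA-4 (Ctla4) competes with CD28 for the ligands CD80 and CD86, and BTLA (Btla) binds the TNF receptor family member HVEM. LAG-3 (Lag3) resembles CD4 and binds MHC class II among other ligands, TIGIT (Tigit) binds the poliovirus receptor family, and TIM-3 (Havcr2) has galectin-9 among its ligands. Activation itself turns most of these genes on, so that in the first days they mark activated as much as dysfunctional T cells. Cd200 differs from the other genes in kind, since CD200 is the ligand of the inhibitory receptor CD200R and not itself a receptor that signals into the T cell. Its receptor gene Cd200r1 was low throughout, at 3.52, 1.50 and 1.39 CPM at 0.2, 2 and 20 pmol M9C and 2.31 and 2.47 CPM at 20 and 80 pmol L6F, against 3.26 CPM (0.673 to 9.54) in rested cells, where CPM are a condition's summed UMIs (unique molecular identifiers, counted transcripts) scaled to a common total.

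A barcode was given a condition where its top hashtag had 20 or more counts and at least 80% of the hashtag counts, and 10600 cells passed a minimum of 500 genes and a limit of 10% mitochondrial UMIs. There were 1589, 1703 and 1869 cells at 0.2, 2 and 20 pmol M9C, 2477 and 2207 at 20 and 80 pmol L6F, and 755 rested cells. Median UMIs per cell were 6050.0 to 7114 in stimulated cells and 1056 in rested cells, and total UMIs were 11376897 to 16014100 per stimulated condition against 918920 in rested cells. These limits left out 52.3% of rested barcodes but 1.43 to 3.71% of stimulated barcodes, and the rested values therefore describe the deeper rested cells. A gene with 0 UMIs could still stand at up to 0.187 to 0.264 CPM in a stimulated condition and 3.26 CPM at rest. Intervals are 95% and cover counting error only. The CD8 T cell markers Cd8a, Cd8b1, Cd3d, Cd3e, Cd3g and Trac had UMIs in every condition, together 1999 to 2159 CPM in stimulated and 3844 CPM in rested cells, and Cd4 had at most 1 UMI per condition. Markers of macrophages or monocytes summed to 2.67 to 11.4 CPM under M9C, 16.7 to 26.4 CPM under L6F and 151 CPM in rested cells, and those of gamma-delta T cells to 54.8 to 58.8 CPM under M9C, 93.2 to 101 CPM under L6F and 414 CPM in rested cells.

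Of the 5 genes that reached 10 CPM, Pdcd1 and Cd200 differed most between the peptides. Their promoter windows are printed with those of Ctla4 and Btla, the other genes at 10 CPM for which a window was at hand. The windows run from 250 bases before to 50 bases after the RefSeq transcription start (GRCm38.p6), 5′ to 3′ on the gene's strand. Capitals mark the NFAT core GGAAA, the AP-1 motif TGANTCA and the GC box GGGCGG, each searched on both strands.
Pdcd1: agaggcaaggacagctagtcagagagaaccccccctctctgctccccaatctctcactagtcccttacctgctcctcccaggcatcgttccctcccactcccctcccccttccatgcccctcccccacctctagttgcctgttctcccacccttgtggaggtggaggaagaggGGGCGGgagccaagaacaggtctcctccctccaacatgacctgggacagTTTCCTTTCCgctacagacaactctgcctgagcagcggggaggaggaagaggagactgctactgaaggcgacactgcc
Cd200: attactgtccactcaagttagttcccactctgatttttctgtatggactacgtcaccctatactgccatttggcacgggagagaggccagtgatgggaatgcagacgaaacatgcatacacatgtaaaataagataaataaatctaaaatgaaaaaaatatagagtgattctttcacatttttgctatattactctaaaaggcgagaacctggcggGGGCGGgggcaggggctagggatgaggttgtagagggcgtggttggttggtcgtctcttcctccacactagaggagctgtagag
Ctla4: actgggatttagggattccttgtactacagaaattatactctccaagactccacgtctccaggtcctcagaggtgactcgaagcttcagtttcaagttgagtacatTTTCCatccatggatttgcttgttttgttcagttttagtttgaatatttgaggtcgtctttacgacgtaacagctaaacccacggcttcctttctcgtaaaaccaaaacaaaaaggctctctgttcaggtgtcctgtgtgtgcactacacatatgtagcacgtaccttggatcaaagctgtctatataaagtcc
Btla: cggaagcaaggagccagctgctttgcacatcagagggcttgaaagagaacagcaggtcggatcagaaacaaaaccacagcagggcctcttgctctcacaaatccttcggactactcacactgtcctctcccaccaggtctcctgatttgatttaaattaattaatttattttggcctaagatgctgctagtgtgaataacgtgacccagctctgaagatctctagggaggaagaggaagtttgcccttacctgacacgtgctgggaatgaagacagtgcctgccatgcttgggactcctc

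The Pdcd1 window (chr1:94052504-94052803, minus strand) held 2 adjacent NFAT cores, read here as TTTCC, and 1 GC box. The Cd200 window (chr16:45409004-45409303, minus strand) held 1 GC box and no NFAT core. The Ctla4 window (chr1:60908775-60909074, plus strand), which lies inside the GENCODE span of the gene because that span starts farther upstream, held 1 NFAT core. The Btla window (chr16:45224087-45224386, plus strand) held none of the 3 motifs, and TGANTCA was in none of these 4 windows. Of the windows not printed, that of Tigit held 2 NFAT cores and that of Havcr2 held 1 TGANTCA. Of 32817 windows of this length over all genes, 61.3% held GGAAA, 26.7% held it at least 2 times, 7.81% held TGANTCA and 35.6% held GGGCGG. A match describes the letters only, and neither a match nor its absence says whether a factor binds.

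Lag3 (chr6:124904361-124911705 in GENCODE vM21 of GRCm38, minus strand), the MHC class II binding receptor next to Cd4, stood at 83.8, 91.4 and 102 CPM at 0.2, 2 and 20 pmol M9C and at 67.6 and 70.4 CPM at 20 and 80 pmol L6F, against 4.35 CPM (4 UMIs) in rested cells. All 5 stimulated levels lay far above the rested one, and the M9C levels lay above the L6F levels. At 20 pmol M9C Lag3 was 23.4-fold higher than in rested cells (9.13 to 86.1), and at 20 pmol L6F 15.5-fold higher (6.05 to 57.1). Between the peptides at 20 pmol the ratio was 1.51 (1.39 to 1.64). In the order of levels, 2 and 0.2 pmol M9C did not differ beyond counting error, and nor did 80 and 20 pmol L6F.

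Ctla4 (chr1:60887000-60915832, plus strand), which lies between the costimulatory receptor genes Cd28 and Icos, followed another order. It stood at 13.0, 17.2 and 22.3 CPM at 0.2, 2 and 20 pmol M9C and at 23.4 and 25.6 CPM at 20 and 80 pmol L6F, against 1.09 CPM (1 UMI) in rested cells. The highest value was that of 80 pmol L6F, but both L6F levels and that of 20 pmol M9C did not differ beyond counting error. At 20 pmol the M9C to L6F ratio was 0.952 (0.814 to 1.11). Between 20 and 0.2 pmol M9C the ratio of Ctla4 was 1.71 (1.40 to 2.10), the largest of the 5 measured genes, with an interval that met those of Cd200 and Pdcd1. The ratios to rested cells, 20.5 at 20 pmol M9C (3.65 to 812) and 21.5 at 20 pmol L6F (3.84 to 852), rest on that single UMI.

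Pdcd1 (chr1:94038305-94052553, minus strand), the PD-1 gene, stood at 47.1, 62.7 and 69.0 CPM at 0.2, 2 and 20 pmol M9C and at 23.8 and 20.2 CPM at 20 and 80 pmol L6F, against 6.53 CPM (6 UMIs) in rested cells. The lowest M9C level, at 0.2 pmol, was above both L6F levels. At 20 pmol M9C exceeded L6F 2.90-fold (2.57 to 3.28). Against rested cells Pdcd1 was 10.6-fold higher at 20 pmol M9C (4.83 to 28.9) and 3.64-fold higher at 20 pmol L6F (1.66 to 9.99). The levels at 20 and 2 pmol M9C did not differ beyond counting error.

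Btla (chr16:45224315-45257670, plus strand), the HVEM-binding receptor gene, stood at 39.6, 44.1 and 47.1 CPM at 0.2, 2 and 20 pmol M9C and at 31.9 and 26.8 CPM at 20 and 80 pmol L6F, against 8.71 CPM (8 UMIs) in rested cells. At 20 pmol M9C Btla had the smallest ratio to rested cells of the measured genes, 5.41 (2.73 to 12.6), though the intervals of the genes met, and it was 3.67-fold higher at 20 pmol L6F (1.85 to 8.54). The levels at 20 and 2 pmol M9C did not differ beyond counting error, and nor did those at 2 and 0.2 pmol. The level at 0.2 pmol M9C lay above that at 20 pmol L6F beyond counting error. Between the peptides at 20 pmol the ratio was 1.48 (1.31 to 1.66).

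Cd200 (chr16:45382135-45409053, minus strand), the ligand gene, lies 124 kb from Btla. It stood at 107, 137 and 160.1 CPM at 0.2, 2 and 20 pmol M9C and at 52.8 and 40.1 CPM at 20 and 80 pmol L6F, against 8.71 CPM (8 UMIs) in rested cells. Cd200 was the gene in which all 6 levels were apart from their neighbours beyond counting error. It was 18.4-fold higher at 20 pmol M9C (9.32 to 42.7) and 6.06-fold higher at 20 pmol L6F (3.06 to 14.1) than in rested cells. At 20 pmol M9C exceeded L6F 3.03-fold (2.80 to 3.29).

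Tigit (chr16:43648867-43664146, minus strand) and Havcr2 (chr11:46454935-46481255, plus strand) were barely detected. Tigit had 4, 10 and 13 UMIs at 0.2, 2 and 20 pmol M9C and 5 and 2 UMIs at 20 and 80 pmol L6F, against 0 in rested cells. Its highest level, 1.01 CPM at 20 pmol M9C, was below the 3.26 CPM that a count of 0 allows in rested cells, so no difference from rest was detectable at this depth. Between the peptides at 20 pmol the Tigit ratio was 3.22 (1.08 to 11.5) on 13 against 5 UMIs. Havcr2 had between 1 and 5 UMIs in each stimulated condition and 0 in rested cells. These few UMIs are the whole record of both genes.

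**Figure D1:**
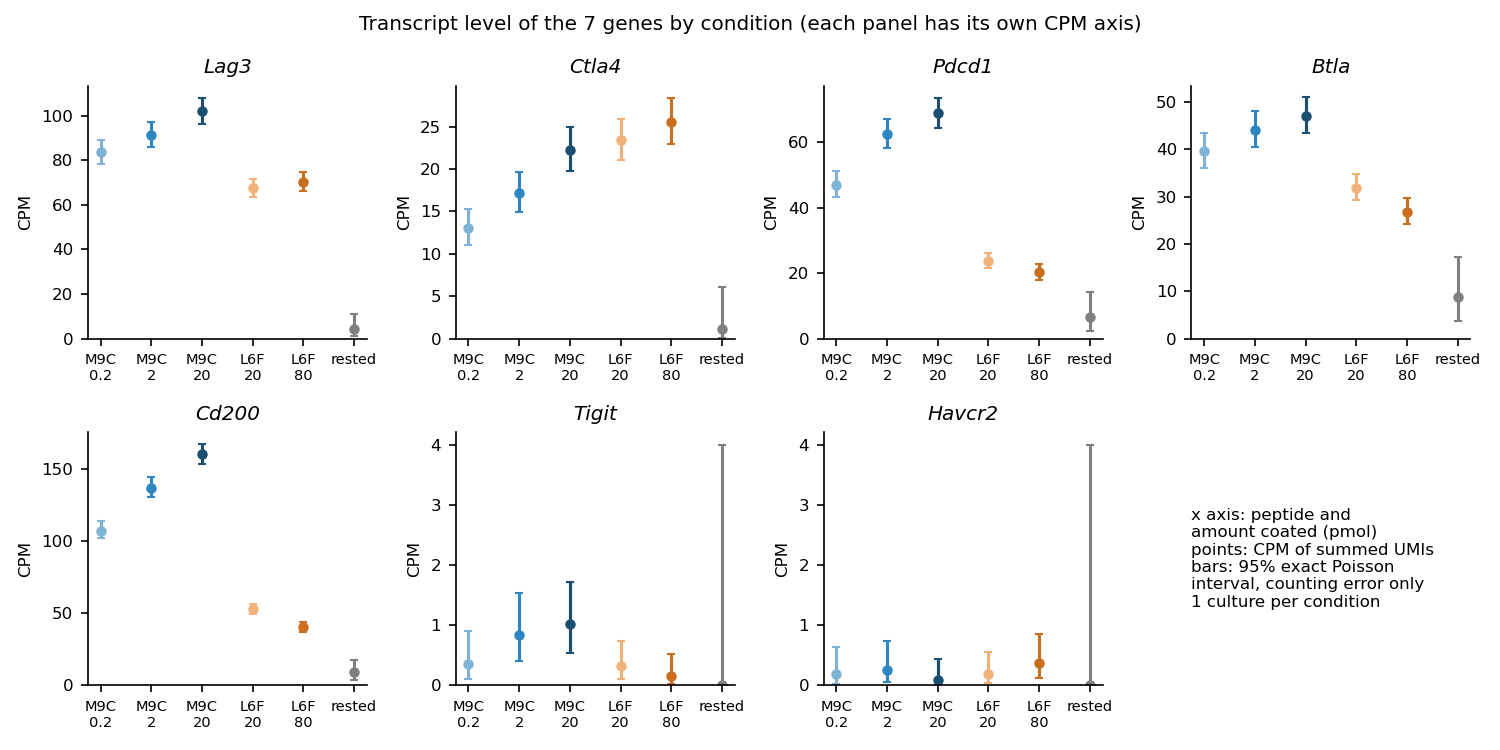
CPM of summed UMIs for the 7 genes in each condition, with 95% exact Poisson intervals for counting error and 1 culture per condition. Lag3, Pdcd1, Btla and Cd200 are highest at 20 pmol M9C, Ctla4 is about level between 20 pmol M9C and both L6F amounts, and Tigit and Havcr2 stay near 0 with a wide rested interval.

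Counting genes past 2-fold at 10 CPM or more in either condition, 5 of the 7 genes were measured in each comparison with rested cells and all 5 were past it. None of them reached 10 CPM in rested cells, where the highest was 8.71 CPM, so they were measured only through the stimulated cells and their number is no support of its own. Over all measured genes, 17.1, 17.1 and 17.4% were past 2-fold higher at 0.2, 2 and 20 pmol M9C, and 14.9 and 14.1% at 20 and 80 pmol L6F. Past 2-fold lower were 16.4, 16.6 and 16.2% under M9C and 14.2 and 13.6% under L6F. The 5 comparisons share the rested cells and their few UMIs. With cells called by HTODemux the log2 ratios of Lag3 to rest were 2.80 to 3.39 in place of 3.96 to 4.55 and those of Ctla4 2.29 to 3.25 in place of 3.58 to 4.56, and with at least 1000 genes per cell, which left 47 rested cells, that of Pdcd1 at 80 pmol L6F was 0.56 in place of 1.63.

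Between the peptides at 20 pmol, where all 5 measured genes stood at 10 CPM or more in both conditions, Cd200 and Pdcd1 were past 2-fold higher under M9C, against 0.884% of 7014 genes. No measured gene was past 2-fold lower, against 0.756%. The median log2 ratio of the 5 genes was 0.59 and that of all measured genes 0.02. The remaining 3 genes were between Ctla4, with an interval that held equality, and Lag3. Markers of macrophages or monocytes were lower under M9C than L6F at 20 pmol (2.79 and 16.7 CPM), as were those of gamma-delta T cells (58.7 and 93.2 CPM). Without cells with 3 or more UMIs of another cell type's markers, no ratio changed its side of 2-fold.

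For 4 of the 5 measured genes, all but Ctla4, the amount of M9C made less difference than the peptide did at 20 pmol. No measured gene was past 2-fold between 20 and 2 pmol M9C, where 0.0288% of all genes were higher and 0.0432% lower, or between 2 and 0.2 pmol, where 0.115% were higher and 0.0719% lower. Over the whole range from 0.2 to 20 pmol M9C, 0.272% of all genes were past 2-fold higher and 0.143% lower, and again none of the 5 was. Within that limit, the levels of all 5 genes stood in the order of the M9C amount. The ratios of 20 over 0.2 pmol were 1.71 for Ctla4, 1.49 for Cd200 (1.39 to 1.60), 1.46 for Pdcd1 (1.31 to 1.63), 1.22 for Lag3 (1.12 to 1.32) and 1.19 for Btla (1.05 to 1.35), each with an interval above equality.

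With L6F the higher amount gave no higher level beyond counting error for any of the 5 genes. Cd200 at 80 pmol was 0.760 times its level at 20 pmol (0.682 to 0.847), Btla 0.841 times (0.734 to 0.963) and Pdcd1 0.851 times (0.726 to 0.995). The intervals for Lag3, 1.04 (0.953 to 1.14), and Ctla4, 1.09 (0.943 to 1.27), held equality. Of all measured genes, 0% were past 2-fold in either direction between these amounts. The plot of ratios sets the 3 comparisons side by side for each gene.

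**Figure D2:**
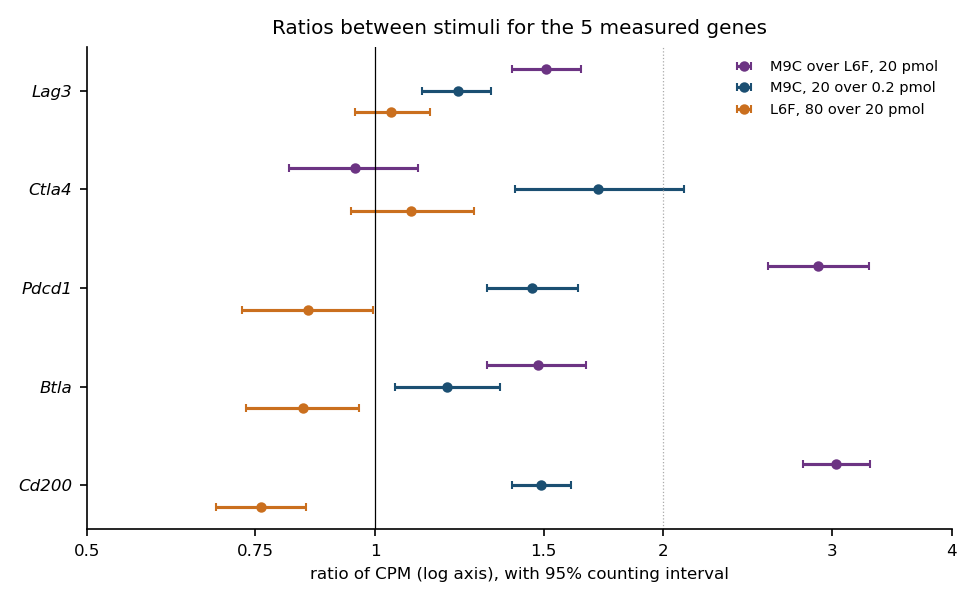
Ratio of CPM on a log axis for the 5 measured genes, with 95% intervals for counting error, in 3 comparisons (M9C over L6F at 20 pmol, 20 over 0.2 pmol M9C, 80 over 20 pmol L6F). Cd200 and Pdcd1 lie near 3 between the peptides while Ctla4 lies at 0.952, and the L6F ratios of Cd200, Btla and Pdcd1 lie below 1.

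The share of cells with a UMI of a gene depends on depth, so cells were compared after thinning to 1 number of UMIs. At 1000 UMIs, Lag3 was seen in 8.01, 8.83 and 9.88% of cells at 0.2, 2 and 20 pmol M9C and in 6.73 and 5.91% at 20 and 80 pmol L6F, against 0.216% of rested cells, of which 464 remained and 291 were shallower. Without thinning these shares were 40.7, 43.0 and 45.6% under M9C and 31.7 and 31.9% under L6F, against 0.530% of rested cells. Cd200 was seen in 10.3, 11.3 and 14.6% of cells at 1000 UMIs under M9C and in 4.30 and 3.45% under L6F, against 0.862% of rested cells, and in 44.5, 53.7 and 57.1%, 23.5 and 18.5%, and 1.06% without thinning. Lag3 and Cd200 were thus found in more cells of every stimulated condition than of the rested one, by intervals that do not meet.

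Pdcd1 was seen in 5.17, 5.83 and 7.47% of thinned cells at 0.2, 2 and 20 pmol M9C and in 2.51 and 1.91% at 20 and 80 pmol L6F, against 1.08% of rested cells (0.351 to 2.50%). Unthinned, it was 25.1, 31.0 and 33.0%, 12.6 and 10.2%, and 0.795%. Btla was seen in 3.22, 4.24 and 4.30% of thinned M9C cells and in 3.28 and 2.09% of thinned L6F cells, against 0.862% (0.235 to 2.19%) of rested cells, and unthinned in 23.5, 24.9 and 27.5%, 18.5 and 14.8%, and 1.06%. For Pdcd1 the rested interval met those of both L6F amounts, and for Btla that of 80 pmol, so at this depth these shares could not be told from rest. Ctla4 was seen in 1.32, 1.77 and 2.42% of thinned M9C cells and in 2.03 and 2.59% of thinned L6F cells, against 0.216% of rested cells, and unthinned in 8.56, 10.6 and 13.2%, 13.3 and 14.6%, and 0.132%. The thinned Ctla4 interval of rested cells met that of 0.2 pmol M9C (0.821 to 2.02%) and lay just below that of 2 pmol M9C (1.20 to 2.51%), and with another random draw in the thinning it met both (0.721 to 1.81% at 2 pmol M9C).

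Stimulated cells allowed a deeper comparison at 3000 UMIs. Cd200 was then seen in 25.6, 32.8 and 34.9% of cells at 0.2, 2 and 20 pmol M9C and in 13.1 and 10.4% at 20 and 80 pmol L6F. Pdcd1 was seen in 12.3, 15.5 and 18.0% under M9C and in 6.82 and 5.23% under L6F. Both the level of these genes and the share of cells holding a transcript were lower under L6F than under M9C. Lag3 was seen in 22.7, 22.2 and 26.2% of M9C and 18.6 and 18.0% of L6F cells, Btla in 11.9, 12.6 and 14.3% and in 9.52 and 7.55%, and Ctla4 in 3.73, 5.26 and 6.23% and in 6.33 and 7.80%.

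**Figure D3:**
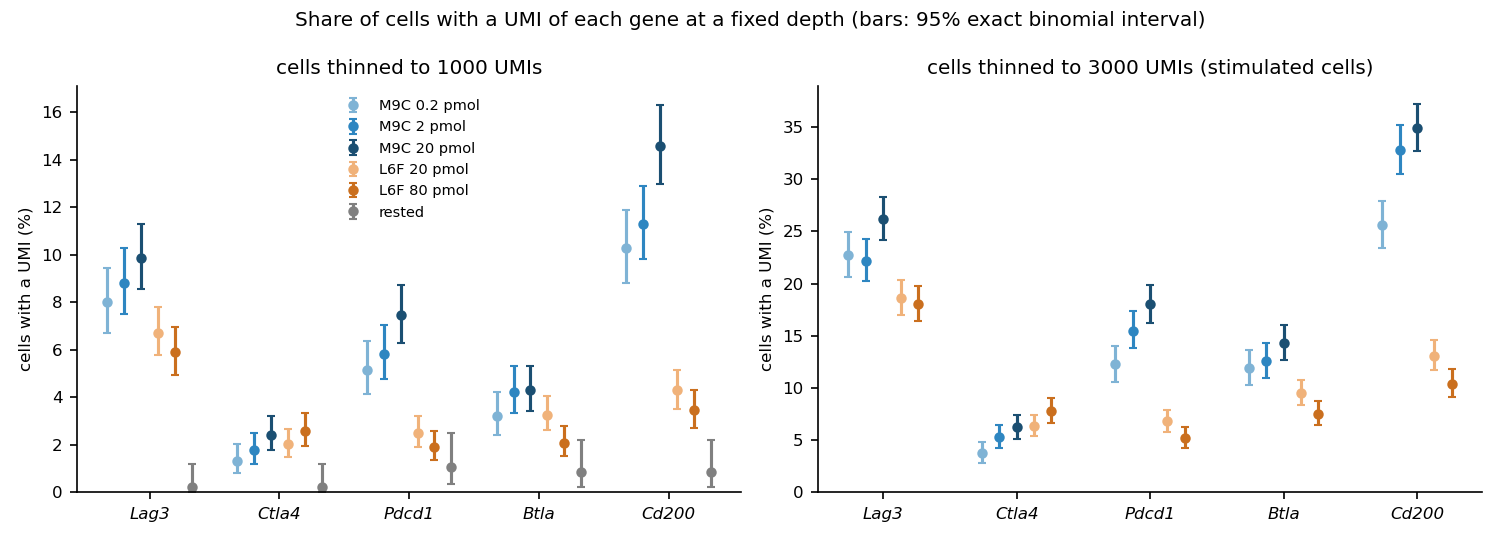
Share of cells with a UMI of each measured gene after thinning cells to 1000 UMIs (left, all conditions) or 3000 UMIs (right, stimulated cells), with 95% exact binomial intervals. Cd200 and Pdcd1 split by peptide, and the rested intervals of Pdcd1 and Btla reach into the L6F values at 1000 UMIs.

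Free RNA in droplets can give a UMI to a cell that does not express a gene. In 15 barcodes with 10 or more UMIs of erythroid markers, the median depth was 7986 UMIs, above the stimulated medians of 6050.0 to 7114. Neither they nor the barcodes of other types below were tested for T cell transcripts. They are therefore not known to lack these genes, and their shares are no measure of free RNA alone. Of the 15, 3 had a Lag3, 1 a Cd200 and 1 a Btla UMI. Pdcd1 and Ctla4 had none, which allows a share of up to 20% in so few barcodes. The Lag3 share, 20% (4.33 to 48.1%), lay below the 31.7 to 45.6% of stimulated cells without thinning, but its interval met theirs. The 6.67% of Cd200 (0.169 to 31.9%) lay below the M9C cells beyond counting error and not beyond it below the L6F cells, and the same share of Btla met the intervals of all 5 conditions. The Ctla4 shares of 8.56 to 14.6%, and the Pdcd1 shares of 10.2 and 12.6% under L6F, lie within what 0 of 15 allows. Of 4 barcodes with platelet markers 1 had a Cd200 UMI (25%, 0.631 to 80.6%), and of 3 with basophil or mast cell markers 1 had a Lag3 UMI (33.3%). In 7 macrophage or monocyte barcodes, at a median of 2744 UMIs, no UMI of the 7 genes was seen. Of the rested cells, 27 held a single UMI of 1 of the genes and none held 2. These 27 cells had a median of 1192 UMIs against 1051 in the other rested cells, and the part of free RNA in the rested values was not tested.

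Co-expression was read in single stimulated cells at 3000 UMIs. Cells with UMIs of at least 2 of the 5 measured genes made up 17.9, 22.0 and 25.7% at 0.2, 2 and 20 pmol M9C and 10.1 and 8.51% at 20 and 80 pmol L6F. The product of the single shares, which holds if the genes fall on cells independently, gives 16.5, 21.1 and 25.8% under M9C and 9.21 and 7.60% under L6F. Cells with at least 3 genes made up 3.07, 4.26 and 5.77% under M9C, against 2.34, 3.54 and 5.02% if independent. Under L6F they made up 1.37 and 0.805%, against 0.972 and 0.712%. Cells with at least 2 genes were thus near the product. Cells with at least 3 were above it in all 5 conditions, on 46, 68 and 101 M9C cells and 31 and 16 L6F cells. Whether that excess goes beyond counting error was not tested. Cells with 4 genes made up 0.467, 0.501 and 0.800% under M9C, against 0.147, 0.269 and 0.443% if independent, and 0.354% at 20 pmol L6F, against 0.0491%, with none at 80 pmol L6F. Without thinning, all 5 had a UMI in 7, 12 and 15 M9C cells (0.441, 0.705 and 0.803%, against 0.0914, 0.189 and 0.312% if independent) and in 5 and 4 L6F cells (0.202 and 0.181%, against 0.0230 and 0.0131%). The unthinned cells differ in depth, whose part in this was not tested.

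**Figure D4:**
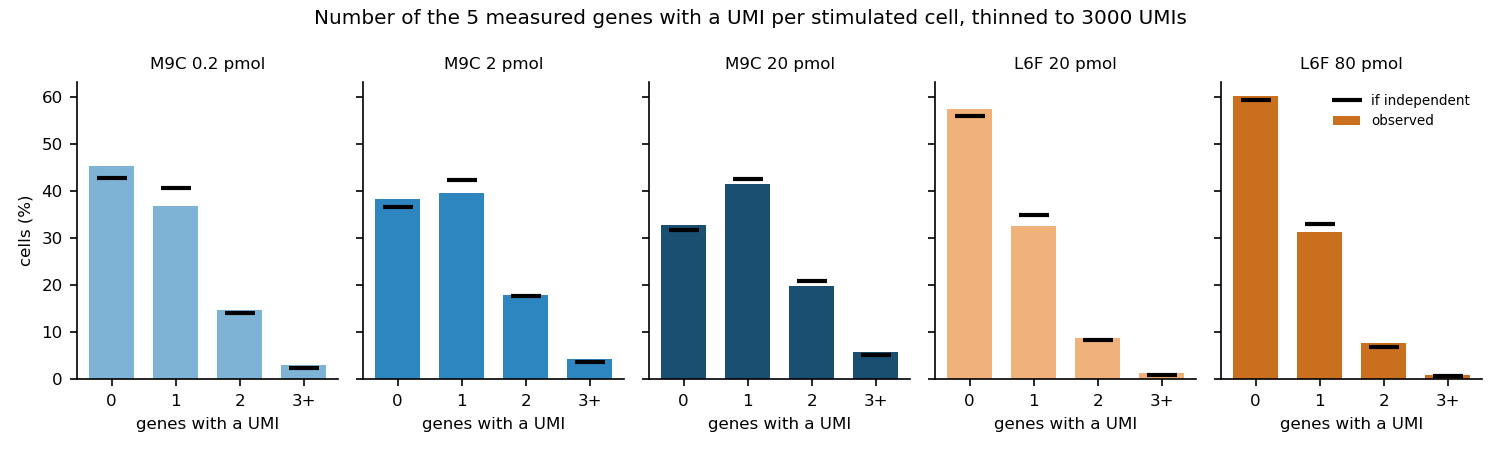
Share of stimulated cells by the number of the 5 measured genes with a UMI, after thinning to 3000 UMIs (bars), and the share expected if the genes fell on cells independently (black lines). Bars and lines lie close together up to 2 genes, and M9C cells carry more of the genes than L6F cells. Bars lie above the lines at 3 or more genes in all 5 conditions, on 16 to 101 cells each, not tested against counting error.

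Of 50 pairs of genes by condition, 31 were seen together more often than the product of their shares. The median of the 50 ratios was 1.10, the lowest 0.509 and the highest 1.73. In 6 of them the interval lay above 1 and in 0 below. These were Cd200 with Btla at 2 and 0.2 pmol M9C (1.27 and 1.38), Cd200 with Pdcd1 at 0.2 pmol M9C and 20 pmol L6F (1.32 and 1.73), Lag3 with Cd200 at 80 pmol L6F (1.37) and Lag3 with Pdcd1 at 20 pmol L6F (1.50). At 1000 UMIs 1 of the 50 intervals lay above 1. In sparse counts such weak ratios in a single condition are no finding. Lag3 with Cd200 (lowest 1.14, highest 1.37) and Cd200 with Pdcd1 (lowest 1.13, highest 1.73) were above 1 in all 5 conditions at 3000 UMIs. The other pairs each fell below 1 in some condition. Pooled over the conditions, cells with a Lag3 UMI held 1.28 times the Cd200 UMIs of cells without one (1.19 to 1.38). These pairs were picked after their values were seen, and their co-expression was not tested.

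Cells with a Pdcd1 UMI held chemokine transcripts more often than cells without one. At 3000 UMIs, Ccl3, a chemokine of activated CD8 T cells, had a UMI in 43.5, 52.0 and 64.1% of cells with a Pdcd1 UMI at 0.2, 2 and 20 pmol M9C, against 31.0, 34.0 and 43.0% of cells without one. Under L6F it was in 29.9 and 26.0% of Pdcd1 cells at 20 and 80 pmol, against 11.0 and 9.19% of the others. The related chemokine gene Ccl4 was in 54.9, 63.3 and 70.2% of Pdcd1 cells, against 36.6, 41.0 and 46.8% of the others, under M9C, and in 45.5 and 29.8%, against 18.0 and 13.6%, under L6F. For both chemokines the intervals of cells with and without Pdcd1 were apart in all 5 conditions, at equal depth.

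Ifng, the interferon gamma gene, was in 11.4, 15.7 and 11.1% of Pdcd1 cells under M9C, against 7.37, 5.49 and 8.70% of the others, and in 9.74 and 14.4%, against 4.28 and 3.24%, under L6F, with intervals apart in 3 of 5 conditions. Cells with a Cd200 UMI had more Ccl3 in 5 of 5 conditions, apart in 3. The same was found for Ccl4. Cells with a Lag3 UMI had more Ccl3 and more Ccl4 in 4 of 5 conditions, each apart in 1. Cells with a Btla UMI had more Ccl3 in 2 of 5, apart in 0, and more Ccl4 in 4 of 5, apart in 1 (27.4 against 19.1% at 20 pmol L6F). Cells with a Ctla4 UMI had more Ccl3 in 1 of 5 and more Ccl4 in 2 of 5, apart in 0. The chemokines and Ifng were chosen after their values were seen, the cells of a condition share 1 culture, and whether the receptors differ from each other in this was not tested.

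**Figure D5:**
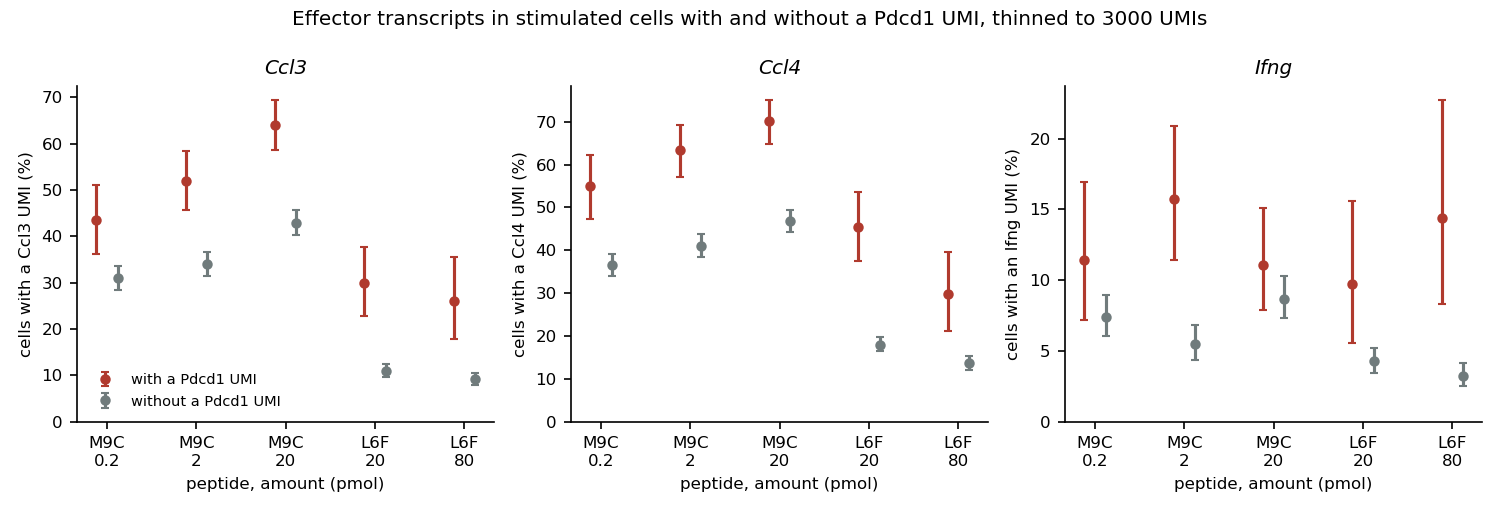
Share of stimulated cells with a UMI of Ccl3, Ccl4 or Ifng, split into cells with and without a Pdcd1 UMI, after thinning to 3000 UMIs, with 95% exact binomial intervals. Ccl3 and Ccl4 are higher in Pdcd1 cells in each of the 5 conditions, and the Ifng intervals meet at 20 and 0.2 pmol M9C.

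Over the 6 conditions, the genes nearest to each member by the root mean square distance of centred log2 CPM, among 7429 genes (7430 for Ctla4), were as follows. Nearest to Lag3 was Zbtb32, a transcriptional repressor of activated lymphocytes (0.116), and nearest to Cd200 were the serpin gene Serpinb6b (0.109) and Ifng (0.156), followed by Pdcd1 (0.278). Nearest to Pdcd1 were the endosomal tether gene Eea1 (0.185), the receptor gene Slamf1 (0.216) and the transcription factor gene Bhlhe40 (0.231). Nearest to Btla were Zc3h12d (0.0611), Slc43a3 (0.0722) and Hnrnpll (0.0751). Nearest to Ctla4 were the histone gene Hist1h1a (0.286), Ptms (0.381) and Mybl2 (0.421), and the first was near Lag3 too (0.252). Ptms, which lies 1.98 kb from Lag3, was also near that gene (0.279), with 106 CPM at 20 pmol M9C and 83.6 CPM at 20 pmol L6F against 7.62 CPM in rested cells. Each distance includes the rested level, which rests on 1 UMI for Ctla4, 4 for Lag3, 6 for Pdcd1 and 8 each for Cd200 and Btla. Near genes had few rested UMIs too, such as 3 for Zbtb32. The distances and their order therefore depend on a few rested counts.

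Ligands on the T cells themselves were few. Of 12 ligand and counter-receptor genes, 4 were at 10 CPM or more at 20 pmol M9C or in rested cells, and 2 were past 2-fold higher and 2 lower, with a median log2 ratio of 0.04. Over all measured genes 17.4% were past 2-fold higher, 16.2% were lower and the median was 0.10 in this comparison, which the counts of the lists below are set beside as well. The 2 higher ligand genes, Pdcd1lg2 and Cd274, were below 10 CPM in rested cells. They were measured only through the stimulated cells, so their number is no support of its own. Pdcd1lg2, the PD-L2 ligand of PD-1, stood at 18.4, 27.1 and 37.2 CPM at 0.2, 2 and 20 pmol M9C and at 14.5 and 9.36 CPM at 20 and 80 pmol L6F, against 0 UMIs in rested cells. At 20 pmol M9C it was 11.4-fold higher than the floor of 3 rested counts, with a lower limit of 9.24-fold. Between the peptides at 20 pmol it was 2.57-fold higher under M9C (2.19 to 3.02), in the same order as Pdcd1 and Cd200. Cd274, the PD-L1 gene, stood at 12.0, 19.2 and 21.1 CPM under M9C and at 11.0 and 10.7 CPM under L6F, against 9.79 CPM in rested cells. Lgals3, a galectin gene, ran the other way, with 77.6, 17.9 and 20.7 CPM under M9C and 43.3 and 74.1 CPM under L6F, against 74.0 CPM in rested cells.

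Of 5 costimulatory or HVEM-pathway genes (Cd28, Icos, Cd226, Tnfrsf14 and Cd160), 4 were measured at 20 pmol M9C against rest and 3 were higher, against 17.4% of all genes, with a median log2 ratio of 1.59 against 0.10. Tnfrsf14, the HVEM gene, stands among the ligands too, and Cd160 among the other inhibitory receptors. Cd160, which binds HVEM as BTLA does, stood at 62.3 CPM at 20 pmol M9C against 4.35 CPM (4 UMIs) in rested cells, 14.3-fold higher (5.57 to 52.7). Cd160 was thus measured only through the stimulated cells in both lists that hold it. Cd28, the receptor CTLA-4 competes with, was 3.10-fold higher (2.43 to 4.02). Cd226 went the other way, at 49.2 CPM at 20 pmol M9C against 75.1 CPM in rested cells. Under L6F it stood at 36.7 and 37.4 CPM at 20 and 80 pmol, past 2-fold lower than rest. Of 16 other inhibitory receptor genes 5 were measured, with 2 higher and 3 lower, against 17.4 and 16.2% of all genes, and a median of -2.03. The 3 lower include Vsir, the VISTA gene, at 20.2 CPM at 20 pmol M9C against 89.2 CPM in rested cells, and Pecam1, at 10.1 against 51.1 CPM. Cd5, a brake on T cell receptor signals, was the gene of that list past 2-fold between the peptides, with 179 CPM under M9C and 87.3 CPM under L6F at 20 pmol (2.06-fold, 1.92 to 2.20).

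Of 17 signalling genes, all measured at 20 pmol M9C against rest, 3 were past 2-fold higher and 1 was past 2-fold lower, against 17.4% and 16.2% of all genes, so that the share higher was near the background. Their median log2 ratio was 0.22, against 0.10 over all measured genes. Ptpn6, the SHP-1 phosphatase gene, stood at 180.2 CPM under M9C and 128 CPM under L6F at 20 pmol (1.41-fold, 1.33 to 1.50), and none of the 17 was past 2-fold there. Sh2d1a, the SAP adaptor gene, was 3.02-fold higher at 20 pmol M9C than in rested cells (1.94 to 4.97) and the adaptor gene Sh2d2a 3.01-fold (2.40 to 3.84). Of 24 transcriptional regulators 18 were measured against rest at 20 pmol M9C, 10 higher and 3 lower, against 17.4 and 16.2% of all genes, with a median of 1.03 against 0.10. Of the higher ones, Nr4a2, Nr4a3, Egr2, Egr3, Tbx21, Zbtb32 and Fos were below 10 CPM in rested cells. These were measured only through the stimulated cells, so the count and the median are no support of their own. Tbx21, the T-bet gene, stood at 31.6 CPM at 20 pmol M9C against 2.18 CPM (2 UMIs) in rested cells. Nr4a2, an orphan nuclear receptor induced by T cell receptor signals, differed most of that list between the peptides, at 18.7 CPM under M9C and 3.68 CPM under L6F at 20 pmol (5.09-fold, 3.81 to 6.88). Eomes, a T-box factor, went the other way, at 16.1 and 49.0 CPM (3.04-fold lower under M9C, 2.61 to 3.56).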

How the data were processed

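Gene counts (UMIs) and hashtag counts of 13439 barcodes were deposited by the authors, and the submitters' processing notes name bcl2fastq, Cell Ranger 6.0.1 and the GRCm38 (mm10) build. A deposited table ties hashtags to conditions. The sources used here give neither the cell caller nor the annotation. By the hashtag rule 11671 barcodes had a condition, and 1768 (13.2%), mixed hashtags among them, were left out; no other doublet caller was run, and doublets within a condition remain. By construction of this rule, no barcode could be shared between conditions.

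UMIs were summed per condition with Python 3.11.15, numpy 2.4.6, scipy 1.17.1 and pandas 2.3.3. Ratios of CPM have exact Clopper-Pearson, CPM exact Poisson and shares exact binomial intervals at 95%. Ratios of cells with over cells without a gene's UMI, and of pairs over the product, have Poisson intervals of the observed count. The expected count was taken as fixed there, so its own error is left out. A gene at 0 was set at 3 counts. The ratio step was tested on simulated counts that held counting error only, the error its intervals assume. That test could not cover variation between cells or cultures. HTODemux (Seurat 5.3.0, R 4.3.3, quantile 0.99) was an alternative. The 10 comparisons set each stimulus against rest, amounts of a peptide, and the peptides at 20 pmol.

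The members and lists were chosen with earlier results of these data known. Named are all 7 members, the 3 nearest genes per measured member, and, for some of the comparisons, list genes from the 2 with the largest ratio; others were chosen after their values were seen. Promoter windows are from RefSeq and matched 6 members; Lag3 is named only.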

Additional observations from a re-analysis of the deposited data

Results flagged for a closer look

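The effect of the higher amount had opposite signs for the 2 peptides in 3 genes. The log2 ratio of 80 over 20 pmol L6F was -0.40 for Cd200, -0.23 for Pdcd1 and -0.25 for Btla, while that of 20 over 0.2 pmol M9C was 0.57, 0.55 and 0.25. The amounts differ between the peptides, each is 1 culture, and the difference between these effects was not tested.

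The barcodes that the hashtags put in no condition, 1768 with a median of 8582 UMIs, held all 5 measured genes above the interval of rested cells. Lag3 stood at 82.2 CPM there, Cd200 at 95.7 CPM, Ctla4 at 21.5 CPM, Pdcd1 at 46.5 CPM and Btla at 34.0 CPM, each within the range of the 5 stimulated conditions.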

How the results depend on the processing

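No paired analysis was possible because every condition was 1 culture with no replicate. Ratios of the 5 measured genes did not reverse where called under any alternative, and the largest moves were against rested cells. With 1000 or more genes per cell, 47 rested cells and 145311 UMIs remained, and the number of genes past 2-fold higher than rest was 3, 4 and 4 at 0.2, 2 and 20 pmol M9C, 2 at 20 pmol L6F and 2 at 80 pmol L6F, in place of 5. There Ctla4 had 0 rested UMIs, so its log2 ratio of 0.11 at 20 pmol M9C was taken against the floor of 3 counts. A minimum of 50 CPM left 2, 3 and 3 genes past 2-fold at 0.2, 2 and 20 pmol M9C and 2 and 1 at 20 and 80 pmol L6F, by construction, since fewer genes pass it. With no minimum, Tigit added 1 higher between 2 and 0.2 pmol M9C, 1 higher between 20 and 0.2 pmol M9C and 1 lower between 80 and 20 pmol L6F, and made 3 in place of 2 higher under M9C than L6F at 20 pmol, on 13 UMIs or fewer. UMIs per cell put the median log2 ratio of all genes to rest at 2.43 to 2.65, in place of 0.07 to 0.10. They turned the log2 ratio of Ctla4 between the peptides to 0.03 in place of -0.07, and neither Ctla4 value is past the threshold. HTODemux put the log2 ratio of Lag3 to rest at 2.80 to 3.39, against 3.96 to 4.55, and that of Ctla4 at 2.29 to 3.25, against 3.58 to 4.56; the cause was not tested. Cd200 between the peptides ranged over 1.54 to 1.70 and Pdcd1 over 1.52 to 1.63. Rested depth limits all ratios to rest: 1 to 8 UMIs per gene stand behind them.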

Other observations

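Cells with a Pdcd1 UMI also differed in other genes, chosen after their values were seen. Over the 5 stimulated conditions at 3000 UMIs, 1005 such cells held less Il4ra, the IL-4 receptor alpha chain gene (0.447 times, 0.362 to 0.545), than cells without one. They held 2.85 times the Ccl1 UMIs (2.45 to 3.30), in few cells: at 2 pmol M9C 5 cells held 86 of the 105 Ccl1 UMIs of Pdcd1 cells, and by share of cells the intervals were apart in 1 of 5 conditions. Nr4a2 had a UMI in 11.3% of Pdcd1 cells, against 2.89% of the others, at 2 pmol M9C, and in 6.03%, against 5.08%, at 20 pmol. Few cells carried much of the Ifng: at 20 pmol M9C 5 cells held 194 of the 254 Ifng UMIs of Pdcd1 cells.

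Cells with a Ctla4 UMI, 547 in all, held less Cd160 (0.599 times, 0.442 to 0.795), lower in 5 of 5 conditions. Cells with a Btla UMI, 994 in all, held less Lgals3 (0.501 times, 0.388 to 0.636). Cells with a Cd200 UMI, 2022 in all, held less Ly6c2 (0.390 times, 0.329 to 0.460), a gene whose counts may be shared with its near-identical neighbours. Car1, Ifitm1 and Lyz2, genes of erythroid and myeloid cells, were low in the positive cells of all 5 genes when the conditions were pooled. By condition, Lyz2 was higher in the positive cells in 2 of 5 for Lag3 and Pdcd1 and in 1 of 5 for Cd200, Ctla4 and Btla. Car1 was higher in 1 of 5 for Lag3.

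Pdcd1 at 80 pmol L6F was higher per UMI in the deeper than in the shallower cells (23.5 and 13.7 CPM), as were Cd200 (57.9 and 42.6 CPM) and Lag3 (72.8 and 57.5 CPM) at 20 pmol L6F, while Btla at 20 pmol M9C was lower in the deeper cells (44.0 and 52.9 CPM).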
